A study of Homo sapiens with 3 samples.

Results

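AP-1 is a family of dimeric transcription factors, and 10 genes of this family and of the immediate early response were followed here across 14 cell clusters of embryonal carcinoma (EC) cells that had been driven toward a yolk-sac tumor (YST) fate. The genes were chosen by name, and the averages of all 10 were among the 32727 genes of the deposited data. They were the FOS subfamily (*FOS*, *FOSB*, *FOSL1*, *FOSL2*), the JUN subfamily (*JUN*, *JUNB*, *JUND*), *ATF3*, *EGR1* and *IER2*. All 10 had a mean over clusters of at least 0.05 UMIs (unique molecular identifiers, 1 per captured RNA molecule) per 10000, as did 12139 genes in all.

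FOS proteins cannot pair with each other and bind DNA as partners of a JUN protein through a leucine zipper, whereas JUN proteins can also pair among themselves. Immediate early genes are transcribed within minutes of a stimulus without new protein synthesis, through the MAP kinases, the serum response factor SRF and its ETS-family partners, and their transcripts are short-lived. Growth factors, stress and the detachment of cells from a dish are all known to raise them.

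The cells came from 3 EC lines, 2102EP, NCCIT and GCT27, each sequenced as 1 droplet-based single cell RNA library. EC cells are regarded as the stem cells of non-seminomatous germ cell tumors. Every line carried a stable CRISPR activation helper (MPHv2) under hygromycin selection and was infected with lentiviruses that switch on its own *SOX17* gene, and each received FGF2 (25 ng/mL), heparin (1 μg/mL), Activin-A (100 ng/mL) and CHIRON (3 μM), an agonist of WNT signaling, renewed every 48 h until day 8. Replicates were pooled before sequencing and cells were detached with trypsin. No untreated cells were among the libraries, so no value below is a change upon treatment. For 1 library the title (GCT27) and the other labels (GCT26) disagreed, and parts of the study's text name NT2/D1, another EC line, where the labels name NCCIT.

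The data held 20844 cells, from 2808 in cluster 0 to 42 in cluster 13. Averages pooled the libraries within each cluster, so there were no replicates, no error between cultures and no test. Clusters had been formed from the same cells, and differences between them are descriptions. The cell table named 3 libraries by codes that matched no sample label. They are called library A (8502 cells), library B (6910) and library C (5432) here, and the letters stand for no cell line. Library A was the largest in 7 clusters (2, 3, 5, 6, 8, 10 and 11), library B in 6 (0, 4, 7, 9, 12 and 13) and library C in cluster 1. The activated gene *SOX17* averaged 21.0 UMIs per 10000 in cluster 0, 12.4 in cluster 7 and 8.52 in cluster 13. It was 0.137 and 0.184 in clusters 9 and 12. The EC genes summed to between 1.46 (cluster 13) and 15.7 (cluster 6) UMIs per 10000. Of 14 YST genes, 10 had a mean of at least 0.05. Among them *GPC3* reached 9.78 in cluster 9, *ANKRD1* 6.84 in cluster 1 and *CST1* 2.81 in cluster 10, whereas *AFP* did not exceed 0.0148.

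The promoters of 4 genes are shown because *FOS* and *EGR1* had the most alike patterns over the clusters among the 10 genes. The patterns of *JUN* and *JUND* differed most within the JUN subfamily. Each run is the 250 bases before the RefSeq transcription start (GRCh38.p14), written 5′ to 3′ on the strand of the gene, and positions are counted backward from -1, the base before the start. Capitals mark any CArG box (the site of SRF), AP-1 site (TGANTCA) or CRE-like site (TGANNTCA), each searched on both strands. None of these matches overlapped another.
FOS, chr14:75278578-75278827, plus strand: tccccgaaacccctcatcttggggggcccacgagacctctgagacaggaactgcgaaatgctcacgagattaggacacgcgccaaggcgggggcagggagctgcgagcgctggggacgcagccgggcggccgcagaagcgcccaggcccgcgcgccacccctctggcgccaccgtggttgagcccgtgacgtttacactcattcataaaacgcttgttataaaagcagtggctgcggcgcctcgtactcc
EGR1, chr5:138465229-138465478, plus strand: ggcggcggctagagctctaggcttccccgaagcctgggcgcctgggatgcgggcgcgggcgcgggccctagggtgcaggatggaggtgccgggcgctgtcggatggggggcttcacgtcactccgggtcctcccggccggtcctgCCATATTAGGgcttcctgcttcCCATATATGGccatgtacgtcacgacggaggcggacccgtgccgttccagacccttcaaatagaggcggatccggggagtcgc
JUN, chr1:58784048-58784297, minus strand: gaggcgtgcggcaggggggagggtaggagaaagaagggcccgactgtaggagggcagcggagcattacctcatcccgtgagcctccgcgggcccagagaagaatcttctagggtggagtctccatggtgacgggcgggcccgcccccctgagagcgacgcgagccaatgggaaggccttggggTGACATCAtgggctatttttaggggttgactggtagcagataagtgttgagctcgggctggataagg
JUND, chr19:18281623-18281872, minus strand: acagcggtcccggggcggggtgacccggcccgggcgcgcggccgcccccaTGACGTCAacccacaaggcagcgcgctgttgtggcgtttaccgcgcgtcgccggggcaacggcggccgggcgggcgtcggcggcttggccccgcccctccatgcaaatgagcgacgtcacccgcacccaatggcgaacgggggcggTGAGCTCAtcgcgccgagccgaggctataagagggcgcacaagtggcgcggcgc

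The *EGR1* window held 2 CArG boxes, at -105 to -96 and at -83 to -74, whereas 1.16% of 35116 RefSeq promoters held at least 1 in a window of this length. The *FOS* window held no exact match to any of the 3 motifs, and bases farther upstream were not searched for any gene. *JUN* held a CRE-like site at -67 to -60, and *JUND* held a pair of them, at -200 to -193 and -54 to -47. A CRE-like site was found in 10.1% of all promoters and an AP-1 site in 6.57%. Within the windows searched, 1 of the 9 genes with an entry had a CArG box, 3 had a CRE-like site (*ATF3*, *JUN* and *JUND*) and 0 had an AP-1 site. These matches describe the letters of the window only, and no binding was measured in these cells.

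*FOS*, the founding member of its subfamily, lies on chromosome 14 (75278826 to 75282230, plus strand, GRCh38, GENCODE 44). The highest averages, in UMIs per 10000, were 3.70 in cluster 9 and 2.68 in cluster 12. Clusters 7 (1.72), 0 (1.69), 4 (1.37) and 2 (1.36) followed. Clusters 1 (1.12), 13 (1.04), 10 (0.989), 6 (0.919), 3 (0.815) and 8 (0.696) lay lower. The lowest averages were those of cluster 5 (0.385) and cluster 11 (0.302), so that the level differed 12.2-fold between clusters 9 and 11. On the scale of log2(average + 0.1), which understates the differences of low genes, cluster 9 stood 1.59 above the mean of the other clusters and cluster 12 stood 1.05 above it. Cluster 5 (-1.64) and cluster 11 (-1.92) stood below.

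*EGR1*, a zinc finger factor induced by ERK signaling (chromosome 5, 138465479 to 138469303, plus strand), followed the same order at both ends. Its average was 2.40 in cluster 9, 2.10 in cluster 12, 1.28 in cluster 0 and 1.26 in cluster 7. It lay between 0.468 (cluster 10) and 0.784 (cluster 4) in 8 clusters, namely 1, 2, 3, 4, 6, 8, 10 and 13. It was 0.173 in cluster 5 and 0.157 in cluster 11, a 15.2-fold range. The log2 differences were 1.52 in cluster 9, 1.30 in cluster 12, -1.94 in cluster 5 and -2.02 in cluster 11.

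*JUN*, the partner of FOS proteins and a gene without introns (chromosome 1, 58776845 to 58784048, minus strand), averaged 3.96 in cluster 9, 3.20 in cluster 12, 2.84 in cluster 4, 2.52 in cluster 7 and 2.27 in cluster 0. It was 1.96 in cluster 1, 1.40 in cluster 3, 1.26 in cluster 10 and 1.25 in cluster 2. The averages below 1 were those of cluster 13 (0.981), cluster 6 (0.957), cluster 8 (0.799), cluster 5 (0.690) and cluster 11 (0.580). Cluster 9 was the only one at least 2-fold above the others (log2 1.26), and cluster 12 was 0.91 above them. Clusters 5 (-1.30), 8 (-1.11) and 11 (-1.52) were at least 2-fold below.

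**Figure D1:**
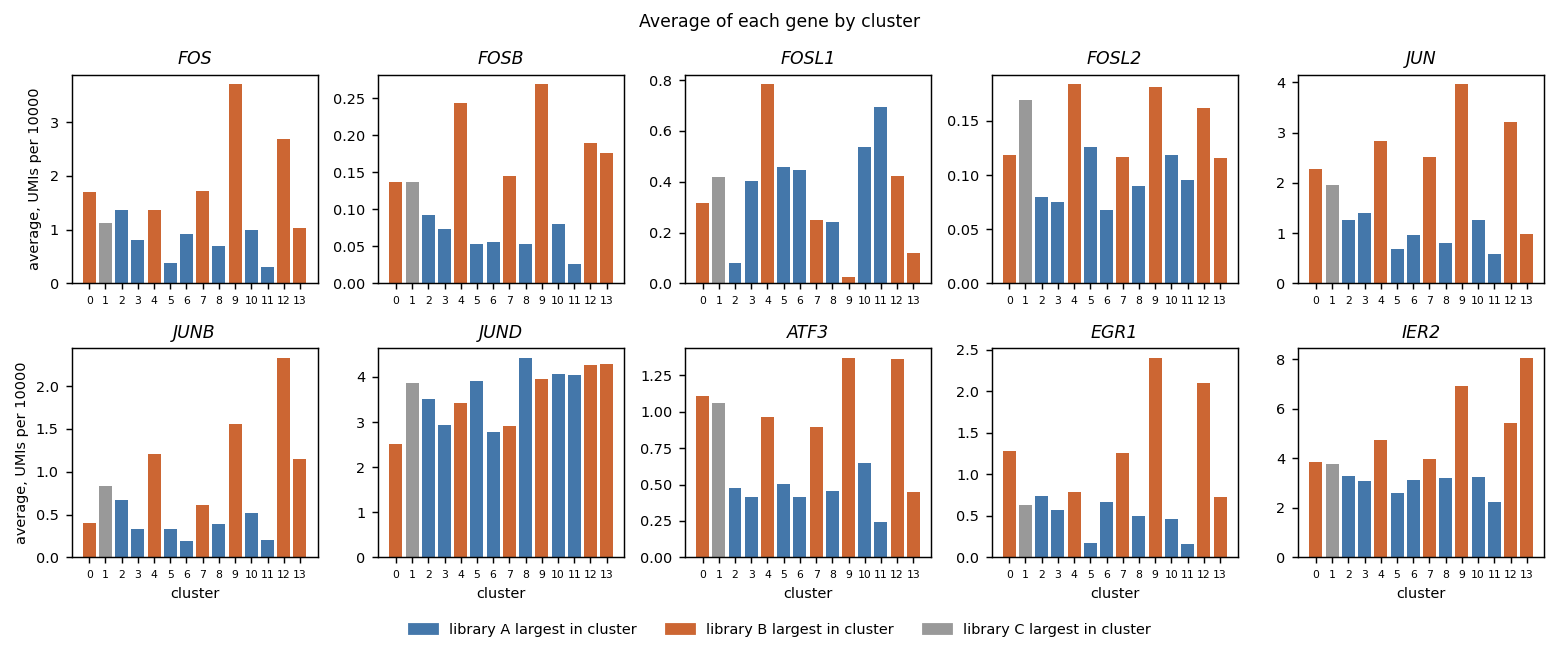
Average of each gene (y axis, UMIs per 10000, from 0) in the 14 clusters (x axis), coloured by the library that holds most of the cluster's cells. *FOS*, *JUN* and *EGR1* are tallest in clusters 9 and 12 (*FOS* 3.70 and 2.68), *FOSL1* is tallest in cluster 4 (0.783) and lowest in cluster 9 (0.0260), and *JUND* stays between 2.51 and 4.41.

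*JUNB*, a JUN paralog that is also an immediate early gene (chromosome 19, 12791486 to 12793315, plus strand), was highest in cluster 12 with 2.32, ahead of cluster 9 (1.56), cluster 4 (1.21) and cluster 13 (1.14). Its lowest averages were 0.190 in cluster 6 and 0.206 in cluster 11, and the median over clusters was 0.562. The log2 difference was 1.70 in cluster 12 and 1.05 in cluster 9. It was at least 2-fold lower in 4 clusters, 6 (-1.65), 11 (-1.57), 3 (-1.06) and 5 (-1.05). In cluster 0, where *FOS*, *JUN* and *EGR1* lay above the mean of the other clusters (0.34, 0.38 and 0.53), *JUNB* averaged 0.395 and lay below it (-0.85).

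*JUND*, the JUN paralog with the steadiest expression in most cell types (chromosome 19, 18279694 to 18281622, minus strand), ranged from 2.51 in cluster 0 to 4.41 in cluster 8, a 1.75-fold range. None of its log2 differences reached 2-fold. After the columns were rescaled by the median of ratios, *JUND* was 1.06 higher in cluster 13. Its range on the log2 scale was at percentile 19.3 of all 12139 genes, whereas those of *EGR1* and *FOS* were at percentiles 98.3 and 98.2.

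*ATF3*, a stress-induced factor that pairs with JUN proteins, is annotated from 212565334 to 212620777 on the plus strand of chromosome 1. It averaged 1.37 in cluster 9, 1.36 in cluster 12, 1.11 in cluster 0, 1.06 in cluster 1, 0.965 in cluster 4 and 0.895 in cluster 7. In the other clusters it lay between 0.240 (cluster 11) and 0.647 (cluster 10). Clusters 9 and 12 cannot be ordered without an error. Only cluster 11 was 2-fold away from the others (-1.37).

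*IER2*, a nuclear immediate early protein (chromosome 19, 13150411 to 13154911, plus strand), had its highest average in cluster 13 with 8.03, followed by 6.91 in cluster 9, 5.42 in cluster 12 and 4.74 in cluster 4. It was lowest in clusters 11 (2.25) and 5 (2.59), a 3.57-fold range. Its log2 difference in cluster 13 was 1.06. That cluster held 42 cells only, its mitochondrial share was 6.10% against 2.47% to 3.51% elsewhere, and ribosomal protein genes took 29.9% of its UMIs. *FOS* (-0.36), *JUN* (-0.83), *ATF3* (-0.64) and *EGR1* (-0.28) lay below the mean of the others in cluster 13, where the median of all genes was -0.51. After rescaling, which shifted that median by 0.49, 8 of the 10 genes lay above the mean of the others, and *FOSL1* was -0.67. What part its RNA composition had in these values was not tested.

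*FOSL1* and *FOSL2* encode FRA1 and FRA2, which lack the strong transactivation domain of FOS. *FOSL1* (chromosome 11, 65892049 to 65900573, minus strand) had an order of its own. It was highest in cluster 4 with 0.783, followed by cluster 11 (0.695), cluster 10 (0.537), cluster 5 (0.457) and cluster 6 (0.446). In cluster 9, where *FOS* was highest, *FOSL1* averaged 0.0260, its lowest value and 30.2-fold below cluster 4. Cluster 2 (0.0822) and cluster 13 (0.118) were also low, and the median over clusters was 0.411. The log2 differences were 1.00 in cluster 4, -1.98 in cluster 9, -1.44 in cluster 2 and -1.17 in cluster 13. The value of cluster 4 lay at the 2-fold limit and stayed past it in 4 of the 9 alternatives that kept this gene and cluster. After the columns were rescaled by the median of ratios, it was 0.90 in cluster 4 and 1.07 in cluster 11. Which of these clusters was highest for *FOSL1* thus depended on the scaling.

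*FOSL2* (chromosome 2, 28392448 to 28417317, plus strand) averaged between 0.0682 in cluster 6 and 0.184 in cluster 4. *FOSB* (chromosome 19, 45467995 to 45475179, plus strand), an immediate early FOS paralog, averaged 0.268 in cluster 9, 0.243 in cluster 4 and 0.189 in cluster 12. Its lowest average was 0.0266 in cluster 11. Neither *FOSB* nor *FOSL2* reached a 2-fold difference in any cluster. With 0.01 added in place of 0.1, *FOSL2* still did not reach it in any. The *FOSB* averages differed 10.1-fold between clusters 9 and 11, and with 0.01 added *FOSB* was at least 2-fold higher in clusters 4 (1.03) and 9 (1.19) and lower in 4 clusters, among them cluster 11 (-1.94).

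The 10 genes were next counted cluster by cluster. Of 140 pairs of gene and cluster, 9 passed the 2-fold limit upward and 15 downward, against 1.27% and 3.40% of all 169946 pairs of the 12139 genes. The highest cluster exceeded the lowest at least 4-fold, with 0.1 added, for 6 of the 10 genes (*FOS*, *FOSL1*, *JUN*, *JUNB*, *ATF3* and *EGR1*) and for 15.2% of all genes. Among genes with a mean of at least 0.5, where this limit is easier to reach, it did so for 5 of 7 members and for 25.9% of 3808 genes.

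In cluster 9, 4 genes (*FOS*, *JUN*, *JUNB* and *EGR1*) were at least 2-fold higher, as were 3.07% of all genes, and 1 (*FOSL1*) was lower, as were 3.12%. Of the 10 genes, 9 lay above the mean of the other clusters, and their median was 0.85 (all genes 0.09). In cluster 12, 3 genes (*FOS*, *JUNB* and *EGR1*) were at least 2-fold higher, as were 2.82% of all genes, all 10 lay above the mean of the others and the median was 0.66 (all genes 0.05). The 10 genes summed to 24.3 UMIs per 10000 in cluster 9 and 22.1 in cluster 12. In the other clusters the sum ranged from 8.59 to 17.1.

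At the other end, 5 genes (*FOS*, *JUN*, *JUNB*, *ATF3* and *EGR1*) were at least 2-fold lower in cluster 11, where 5.02% of all genes were, and 4 (*FOS*, *JUN*, *JUNB* and *EGR1*) in cluster 5, where 4.25% were. The medians of the 10 genes were -1.13 and -0.63, and those of all genes -0.29 and -0.24. Single genes passed the limit in 6 further clusters. *FOSL1* was lower in cluster 2, as were 0.568% of all genes. *JUNB* was lower in cluster 3 (0.173% of all genes) and in cluster 6 (1.38%), and *JUN* in cluster 8 (0.881%). *FOSL1* was higher in cluster 4 (1.22% of all genes). In cluster 13, *IER2* was higher (1.85% of all genes) and *FOSL1* lower (23.9%). No member passed it in clusters 0, 1, 7 and 10. In clusters 0 and 7, where *SOX17* averaged 21.0 and 12.4, the medians were 0.03 and 0.05, and they became -0.06 and -0.02 after rescaling. That of cluster 1 was 0.10 and became -0.01, and that of cluster 13 was -0.16 and became 0.48.

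**Figure D2:**
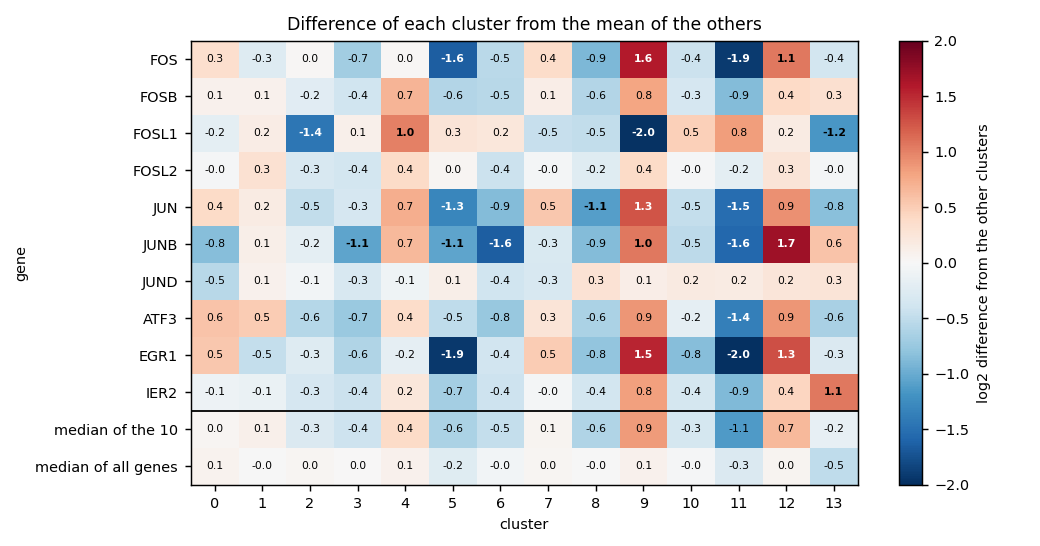
Log2 difference of each cluster from the mean of the others (colour and printed value, 0.1 added to each average) for the 10 genes (rows) in the 14 clusters (columns), with the median of the 10 and of all 12139 genes below the line; bold values are at least 2-fold. Cluster 9 (median 0.85) and cluster 12 (0.66) are red throughout except for *FOSL1* in cluster 9 (-1.98), while clusters 5 and 11 are blue for *FOS*, *JUN*, *JUNB*, *ATF3* and *EGR1*.

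The likeness of the patterns was described by Pearson's r of log2(average + 0.1) over the 14 clusters, which share libraries and are not independent. *FOS* and *EGR1* had an r of 0.98, *FOS* and *JUN* 0.92, and *JUN* and *ATF3* 0.92. *JUNB* was most like *FOSB* (0.88) and *IER2* (0.83). *JUND* had an r between -0.21 (with *JUN*) and 0.40 (with *JUNB*). *FOSL1* was negative or near 0 with each of the others, from -0.54 with *IER2* to 0.00 with *FOSL2*, and was -0.52 with *FOS*. Within the subfamilies, *FOS* and *FOSB* had an r of 0.85, *FOSB* and *FOSL2* 0.77 and *JUN* and *JUNB* 0.74, in contrast to *FOS* with *FOSL1* and *JUN* with *JUND*.

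**Figure D3:**
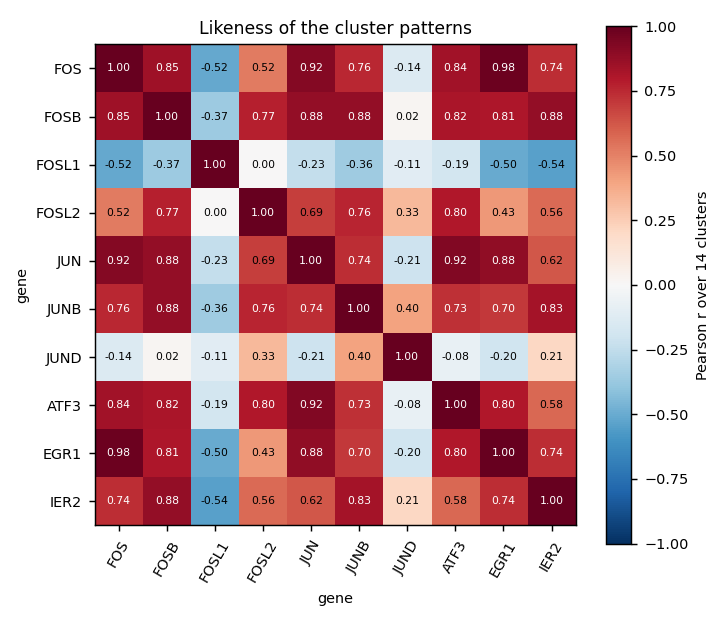
Pearson's r over the 14 clusters of log2(average + 0.1) for each pair of the 10 genes (rows and columns, colour and printed value). *FOS*, *EGR1*, *JUN*, *ATF3*, *FOSB*, *JUNB* and *IER2* form a block of positive values (*FOS* with *EGR1* 0.98), whereas *FOSL1* and *JUND* stand outside it (-0.52 and -0.14 with *FOS*).

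Among 3807 other genes with a mean of at least 0.5, those most like *FOS* included *OGDH* (0.98), *EGR1* (0.98), *AC109454.3* (0.98) and *RSRP1* (0.97). *JUN* was 38th and *ATF3* 166th in that order. Those most like *EGR1* included *FOS* (0.98), *CPVL* (0.97) and *OGDH* (0.96). For *JUN* they were *GOLGA3* (0.97), *CTNNA1* (0.96), *PIK3R3* (0.96), *RSRP1* (0.96) and *PALLD* (0.96), with *FOS* 62nd. *FOSL1* was most like *PHLDA1* (0.91), and then *HEBP1* (0.81), *TNFRSF12A* (0.80), *UCHL1* (0.78) and the cyclin gene *CCND1* (0.77). *PHLDA1* was highest in cluster 4 with 3.90, as was *FOSL1*. These are the leading genes of a long list, and likeness over 14 points says nothing on shared control.

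The averages moved with the library from which a cluster's cells came. In all 6 clusters led by library B, *IER2* averaged 3.85 to 8.03, and in the 7 led by library A it averaged 2.25 to 3.27. *FOSB* likewise averaged 0.136 to 0.268 against 0.0266 to 0.0928. For these 2 genes the ranges did not overlap, with library B higher, as for 3.62% of all genes. For *EGR1* the ranges overlapped at their ends only (0.722 to 2.40 against 0.157 to 0.735). They overlapped for *FOS* (1.04 to 3.70 against 0.302 to 1.36), *JUN* (0.981 to 3.96 against 0.580 to 1.40), *JUNB* (0.395 to 2.32 against 0.190 to 0.664) and *ATF3* (0.452 to 1.37 against 0.240 to 0.647), and also for *FOSL2* (0.116 to 0.184 against 0.0682 to 0.126). *FOSL1* (0.0260 to 0.783 against 0.0822 to 0.695) and *JUND* (2.51 to 4.29 against 2.77 to 4.41) overlapped widely.

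Library B held 83.2% of the cells of cluster 9, 99.4% of cluster 12 and 73.8% of cluster 13, and 6.67% and 7.41% of clusters 5 and 11. Over the 14 clusters, Pearson's r between its share and log2(average + 0.1) was 0.88 for *IER2*, 0.86 for *EGR1*, 0.84 for *FOSB*, 0.83 for *FOS*, 0.82 for *JUNB*, 0.75 for *JUN*, 0.71 for *ATF3*, 0.56 for *FOSL2*, 0.07 for *JUND* and -0.41 for *FOSL1*. In the 10 clusters of at least 100 cells in which no library held over 80%, r was 0.90 for *JUN*, 0.88 for *EGR1*, 0.85 for *FOS* and 0.37 for *JUNB*. There it was -0.68 for *JUND*. No average of 1 library within a cluster was at hand, so library and cluster cannot be told apart for these genes. With clusters 9, 11 and 12 left out altogether, 3 pairs were at least 2-fold higher (*FOSL1* and *JUNB* in cluster 4, *IER2* in cluster 13) and 6 lower. Those lower were *FOS* (-1.39), *JUN* (-1.13) and *EGR1* (-1.66) in cluster 5, *JUNB* in cluster 6 (-1.36), and *FOSL1* in clusters 2 (-1.45) and 13 (-1.18). The shares of all genes without these clusters were not computed, so these counts cannot be set against them.

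**Figure D4:**
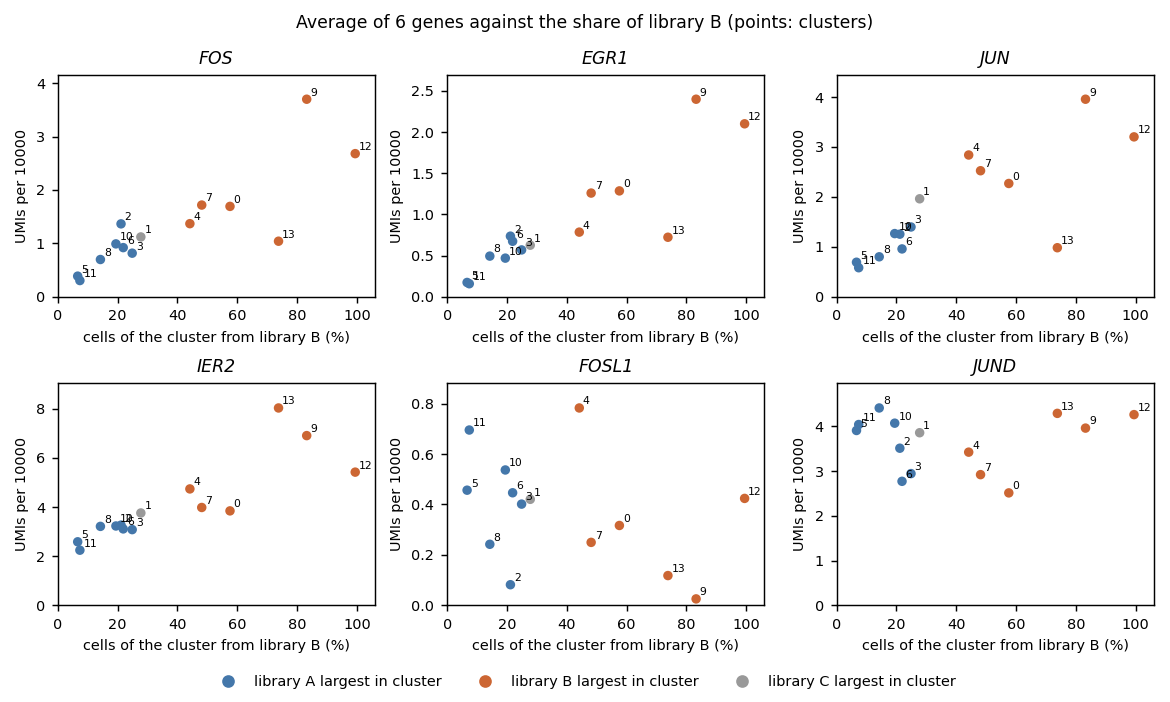
Average of 6 genes (y axes, UMIs per 10000, from 0) against the share of the cluster's cells from library B (x axis, %), with 1 point per cluster, numbered and coloured by its largest library. *FOS*, *EGR1*, *JUN* and *IER2* are higher where that share is higher (*IER2* 2.25 at 7.41% and 5.42 at 99.4%), with cluster 13 low for *JUN* (0.981), while *FOSL1* and *JUND* show no such course.

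The authors' deposited marker table gives the share of cells with at least 1 UMI of a gene, for clusters in which that gene was higher. It listed *JUN* for 5 clusters, *FOS*, *JUNB*, *ATF3*, *EGR1* and *IER2* for 4 each, *JUND* for 3, *FOSL1* for 2 and *FOSB* and *FOSL2* for 0. Cells with *FOS* made up 93.9% of cluster 9 (exact Clopper-Pearson 95% interval 92.2 to 95.4, counting error only), against 59.4% of all other cells. The share was 98.3% in cluster 12, 82.0% in cluster 0, 72.6% in cluster 7 and about 60.9% over all cells. *EGR1* was detected in 90.2% of cluster 9 (88.2 to 92.1) against 45.9% elsewhere, and in 98.9% of cluster 12. Thus both transcripts were found in most cells of clusters 9 and 12.

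The order of detection was not that of the averages. *FOS* was detected in more cells of cluster 12 than of cluster 9, although its average was lower there (2.68 against 3.70). *JUN* was detected in 74.3% of cluster 7 at an average of 2.52, and in 86.8% of cluster 0 at 2.27. *FOSL1* was detected in 95.4% of cluster 11 (93.1 to 97.1) at an average of 0.695, and in 69.5% of cluster 4 (67.5 to 71.4) at 0.783. *JUNB* was detected in 97.2% of cluster 12 and 78.3% of cluster 9. Its share was 71.7% in cluster 4 and 76.2% (60.5 to 87.9) in cluster 13. *JUND* was detected in about 91.5% of all cells and *IER2* in about 88.4%, so a change in detection had little room. Detection depends on the UMIs per cell, which were not analysed here, and no cell type that lacks these genes was present to give the share that free RNA adds.

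**Figure D5:**
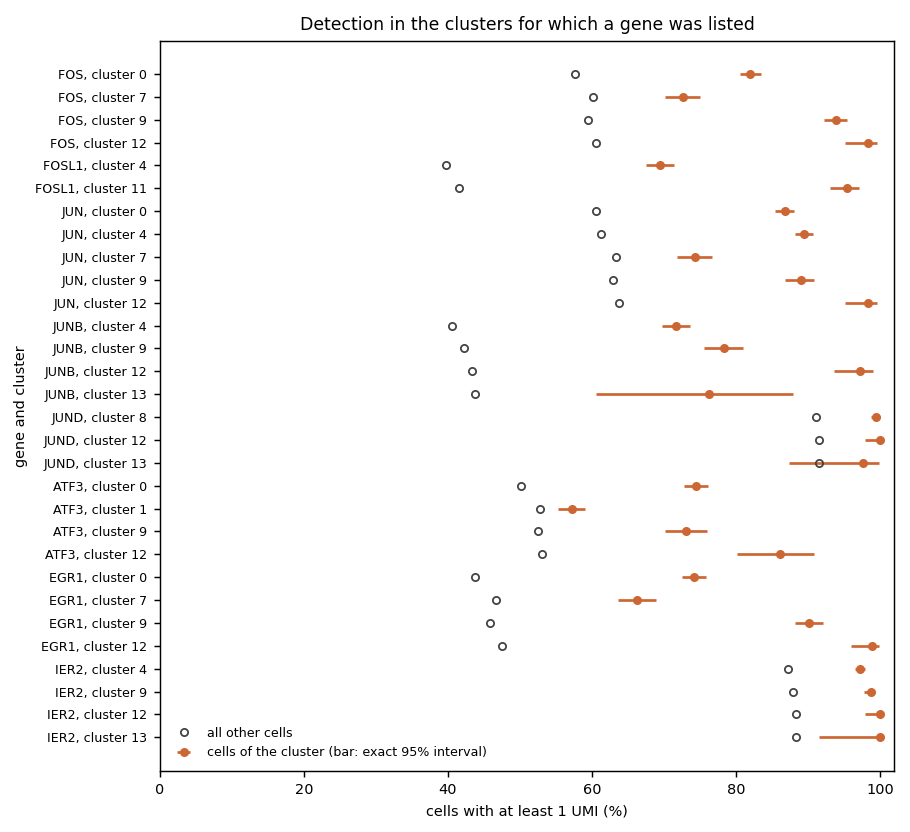
Share of cells with at least 1 UMI (x axis, %) of each gene in the clusters for which it was listed (filled points, bars for the exact 95% interval of counting error) and in all other cells (open points). *EGR1* and *FOS* reach 98.9% and 98.3% in cluster 12, and *JUND* and *IER2* were found in at least 87.3% of the other cells too.

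Of 10 other bZIP genes of the AP-1 network, 6 had a mean of at least 0.05 (*ATF2*, *ATF4*, *ATF7*, *JDP2*, *MAFF* and *MAFG*), and 1 pair passed the 2-fold limit, *ATF2* in cluster 13 (lower), where 23.9% of all genes were lower. Over all pairs of gene and cluster, 1.27% were higher and 3.40% lower. *BATF*, a partner of JUN in lymphocytes, did not exceed 0.00531.

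Of 21 other immediate early and early response genes, 13 had a mean of at least 0.05. In cluster 9, where *FOS* was highest, 1 of these was at least 2-fold higher and 2 were lower. In cluster 12, 3 were higher and 1 was lower. Of all genes, 3.07% were higher and 3.12% lower in cluster 9, and 2.82% and 3.13% in cluster 12. *BTG2*, an antiproliferative gene, averaged 1.37 in cluster 9 and 1.05 in cluster 12 (log2 1.67 and 1.24). *DUSP1*, a phosphatase that switches off MAP kinases, averaged 1.18 in cluster 12 (1.21) and was lower in clusters 5 (-1.44), 8 (-1.14) and 11 (-1.15). *EGR3* reached 0.257 in cluster 12 (1.14). Others went another way. *IER3*, an early gene of the stress response, was highest in cluster 8 with 7.12 (1.33) and lower in clusters 0 (-1.45), 6 (-1.01), 7 (-1.51) and 9 (-1.25). *MYC* was lower in clusters 9 (-1.13) and 12 (-1.34), as well as in 0 and 13, and *KLF6* was higher in cluster 4 (1.20).

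Of the 6 genes of SRF, its ETS partners and co-activators, none passed the limit in clusters 0 to 12 and 3 were lower in cluster 13. Of 11 MAP kinases and upstream kinases, none passed it in those clusters either. In cluster 13, 6 were lower and *MAP2K2* was higher (3.84 UMIs per 10000), where 23.9% of all genes were lower. Levels of these RNAs do not measure kinase activity. Among 9 ERK feedback genes, *DUSP6*, an ERK phosphatase, was higher in clusters 0 (log2 1.02) and 12 (1.07). It was lower in clusters 5 (-1.79), 8 (-1.03) and 11 (-1.63). *SPRED1* was higher in cluster 0 (log2 1.05). Of all genes, 2.29% were higher in cluster 0 and 2.82% in cluster 12. In clusters 5, 8 and 11, 4.25%, 0.881% and 5.02% were lower. In cluster 9 none of the 9 was higher and 2 were lower, as were 3.07% and 3.12% of all genes. *SPRY2*, an inhibitor of ERK signaling, was lower in clusters 9 (log2 -1.06) and 12 (-1.19). *DUSP4*, another phosphatase, was lower in clusters 0, 7, 9 and 13, where 1.79%, 1.19%, 3.12% and 23.9% of all genes were lower. Pearson's r with *FOS* over the clusters was 0.91 for *DUSP6* and -0.91 for *ETV4*, which passed the limit in no cluster. The other ERK feedback genes lay between -0.62 (*DUSP4*) and 0.49 (*SPRED1*).

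Genes known as AP-1 targets did not share 1 course. Of 15, 12 had a mean of at least 0.05, and in cluster 9 none of them was at least 2-fold higher and 3 were lower, while in cluster 4, where *FOSL1* was highest, 3 were higher and 1 was lower. Of all genes, 3.07% were higher and 3.12% lower in cluster 9, and 1.22% and 1.24% in cluster 4. Those higher in cluster 4 included the urokinase gene *PLAU* (1.12 UMIs per 10000, log2 1.16) and the cytokine *IL11* (0.696 UMIs per 10000, log2 1.07). *PLAUR*, the urokinase receptor, was highest in cluster 10 (0.877 UMIs per 10000) and lower in clusters 0, 7, 9 and 12. *AREG*, an EGF receptor ligand, averaged 2.75 in cluster 0 and was at least 2-fold lower in 10 clusters. *MMP9* was higher in cluster 12 (0.294 UMIs per 10000), and *MMP1* and *MMP3*, classical AP-1 targets, had means below 0.05.

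Other genes differed between the same clusters. Of 10 YST genes with a mean of at least 0.05, 2 were higher and 6 lower in cluster 9 (median -1.08). In cluster 12, 1 was higher and 3 were lower (median -0.76). Of all genes, 3.07% were higher and 3.12% lower in cluster 9, and 2.82% and 3.13% in cluster 12. *GPC3*, a cell surface proteoglycan, averaged 9.78 in cluster 9 and 5.10 in cluster 12 (log2 2.97 and 1.68). The chemokine receptor gene *CXCR4* averaged 0.387 in cluster 9 (1.52), whereas *ANKRD1* averaged 0.156 there (-3.05). Pearson's r with *FOS* over the 14 clusters was 0.88 for *GPC3*, 0.83 for *CXCR4* and -0.67 for *ANKRD1*, the lowest of these YST genes. Median log2 differences in clusters 9 and 12 were 0.98 and 1.47 for the 4 nuclear retained transcripts, -1.41 and -1.73 for the 10 G2/M genes, -0.74 and -0.92 for the 10 S phase genes and -1.06 and -1.43 for 9 EC genes. In clusters 5 and 11 the nuclear retained transcripts had medians of -1.65 and -1.43, and ribosomal protein genes took 23.5% and 23.8% of the UMIs, against 16.3% to 19.4% in the 11 clusters other than 5, 11 and 13. *DDIT3*, a stress-induced bZIP gene, averaged 3.36 in cluster 9 and 4.96 in cluster 13, and 0.492 in cluster 11. Of 8 heat shock genes, 7 had a mean of at least 0.05, and *HSPA1A* did not exceed 0.0995. None was at least 2-fold higher in any cluster, and 1.27% of all pairs of gene and cluster were. *HSPH1* was lower in clusters 12 and 13, and *HSP90AA1* and *HSPD1* in cluster 13. Of all genes, 3.13% were lower in cluster 12 and 23.9% in cluster 13. Of 7 fibroblast genes, *COL1A1* averaged 1.30 in cluster 9 and 1.39 in cluster 12, and *COL1A2* 2.21 in cluster 12. *PDGFRB* averaged 0.250 in cluster 9 (log2 1.01), whereas *DCN* and *LUM* did not exceed 0.00211 and 0.0298. The list summed to between 0.160 and 3.82 UMIs per 10000. The endothelial and blood list summed to between 0.0964 and 0.490, with the highest sum in cluster 0. There the endothelial gene *CDH5* averaged 0.342 (log2 1.64), and 2.29% of all genes were at least 2-fold higher. *PTPRC* did not exceed 0.00185 in any cluster. The part that any of these had in the values of the 10 genes was not tested.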

How the data were processed

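Cells of 3 lines (1 library each) were sequenced with a droplet-based 3′ method. Per the submitters' processing notes and the study's methods, Cell Ranger 7.0, the GRCh38 genome and Seurat 4.1.1 were used. The study removed doublets with DoubletFinder before clustering, and no source used here names the annotation release. The authors deposited, for each of 14 clusters, the mean over cells of UMIs scaled to 10000 per cell, without log transformation and with the libraries pooled. The authors' deposited cell table holds, for every library code in a cluster, the count of cells and their percent. The codes matched no sample label. The authors' deposited marker table gives the fraction of cells with at least 1 UMI of a gene, printed here as a percent. Its 3 columns of fold changes and p-values were not used. The depth per library and the UMIs per cell were not analysed here.

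For each gene and cluster the difference was log2(average + 0.1) minus log2(mean of the other clusters + 0.1), and 1 or more in either direction was counted. Genes with a mean under 0.05 were left out of the counts over all genes. No test was run. All 6723 pairs of gene and cluster in the marker table were higher in their own cluster, so both tables number the clusters alike. Named were all 10 genes in every cluster, at most 4 genes of each other list per cluster described that differed at least 2-fold, the 5 genes most like *FOS*, *JUN*, *EGR1* and *FOSL1*, and absent markers of other cell types. *BATF*, *HSPA1A*, *MMP1*, *MMP3* and *AFP* were named for their low level, and *ETV4* for its correlation with *FOS*, after their values were seen. Some genes that met these rules are not reported here. The 10 genes and all lists were chosen with earlier results of these data known. Gene positions came from GENCODE 44 and promoters from RefSeq (GRCh38.p14), where 9 of the 10 genes matched, *FOSL1* being the exception. Alternatives were other added values (0.01 and 1), filters, references, a rescaling by the median of ratios and clusters left out. Python 3.11.15, pandas 2.3.3, numpy 2.4.6, scipy 1.17.1 and matplotlib 3.10.9 were used, and the calculation was tested on simulated data.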

Additional observations from a re-analysis of the deposited data

How the results depend on the processing

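Of 140 pairs of gene and cluster, 9 were at least 2-fold higher and 15 lower, against 1.27% and 3.40% of all pairs. For the alternatives, the shares over all genes were not computed, and the counts describe the 10 genes only. With 1 added to each average in place of 0.1, 2 were higher and 0 lower, since most averages lie near 1 or below. Against the median of the other clusters, 15 were higher. Without the clusters in which 1 library held over 80% of cells, 3 were higher and 6 lower of 110 pairs. With clusters under 100 cells left out as well, an alternative chosen after seeing the data, 1 was higher and 5 lower of 100 pairs. Under the other alternatives both counts stayed within 1.5 times, and no difference that had passed the limit changed sign. The call of *FOSL1* in cluster 4 was kept in 4 of 9 alternatives, and those of *JUNB* in clusters 3 and 5 in 5 of 10 each. Those of *FOS* in cluster 9 and *JUNB* in cluster 12 were kept in 8 of 8. These totals include the filters on low values, which change no difference of a gene they keep. Leaving out clusters in which 1 library held over 80% of cells removes clusters 9 and 12, so their calls were not tried that way. No paired analysis was possible because the averages pool the libraries and the results come from no test. For the same reason no replicate could be left out. Pooling also means that cultures and lines give no error, and that small clusters, such as cluster 13 with 42 cells, are the least precise.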
